A study of Homo sapiens with 2 samples.

Results

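The nuclear genes of respiratory complex I were compared between HCT15 cells carrying an shRNA against LYAR and HCT15 cells carrying a scramble shRNA. Genes were chosen by name, as all those whose array symbol began with NDUFA, NDUFB, NDUFC, NDUFS or NDUFV, with the NDUFAF assembly factors left out. The rule gave 39 of the 23619 genes on the array and 79 of its 45033 probe sets, each probe set built from 3 probes. Of these genes, 37 encode subunits of complex I, 7 of them core and 30 accessory. The other 2 are NDUFA4 and NDUFA4L2, which keep an old name but belong with complex IV. The mitochondrially encoded subunits were not analysed here.

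Complex I, the NADH dehydrogenase of the inner mitochondrial membrane, passes electrons from NADH to ubiquinone and pumps protons as it does so. Its core subunits, shared with bacteria, carry the flavin, the iron-sulfur clusters and the quinone site, and the accessory subunits surround and stabilise them. The nuclear core subunits lie in the arm that reaches into the matrix, where the N module oxidises NADH and the Q module reduces quinone. The membrane arm has a proximal and a distal part, and its nuclear subunits are all accessory. Colorectal cancer cells keep respiring beside a high rate of glycolysis, and complex I is then a main consumer of NADH.

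HCT15 is an established human colorectal cancer line. The LYAR-shRNA cells and the scramble-shRNA control cells were made alike, by stable infection with a pLentiLox 3.7 lentivirus packaged in 293T cells, followed by a sort on GFP, which both groups therefore express. The hairpins were built from a pair of LYAR siRNAs, and the labels do not say in words which hairpin the sample carried, nor whether the sorted cells were kept as a pool. LYAR encodes a nucleolar protein with zinc fingers, and the comparison asks which genes differ when its level is lowered. Total RNA of each group was hybridised to 1 single-colour NimbleGen array, so each difference below compares 2 arrays, has no replicate check and carries no p-value. The array number is what limits the precision.

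LYAR itself, measured by 1 probe set, gave an intensity of 1036 with the LYAR shRNA and 1925 with the scramble shRNA, or 53.8% of the control. Random control probes stood at 30.3 and 32.7, and a value under 2 times that intensity (60.7 and 65.4) was treated as near random. Across all probe sets the log2 intensities of both arrays correlated with a Pearson r of 0.966. The colon epithelial markers were above the near-random limit on both arrays for 7 of 9 genes, KRT20 and CDX1 being the exceptions, and their summed intensity was 115420 and 118045. Fibroblast markers were near random on both arrays for 5 of 6 genes and endothelial markers for 4 of 4. Leukocyte markers summed to 508 with the LYAR shRNA and 1072 with the scramble shRNA, with 8 of 9 and 5 of 9 near random, PTPRC (the pan-leukocyte marker CD45) among them on both. CD79A (35.5 against 339) and CD3E (30.1 against 106), markers of B and T cells, were near random with the LYAR shRNA and above the limit with the scramble shRNA. Their part in the subunit differences was not tested. Fewer cells of a type and less RNA per cell cannot be told apart in such bulk RNA.

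The complex I subunit genes as a group sat at the middle of the array. All differences are log2 intensity, LYAR shRNA minus scramble shRNA, a gene being the mean of its probe sets. The 37 genes had a median difference of 0.06, against 0.05 for the 12682 genes that were bright enough to count (105.9 or more on the brighter array) and 0.02 for the 4228 brightest. All 37 were bright enough, and 28 were among those brightest genes. Of the 37, 20 were higher and 17 lower on the LYAR-shRNA array, beside 54.6% higher and 45.4% lower of all counted genes, and 51.8% and 48.2% of the brightest. None was 1.5-fold or more higher, beside 15.0% of all counted genes and 6.08% of the brightest. NDUFC2 and NDUFB7 were 1.5-fold or more lower, beside 11.0% of all counted genes and 6.05% of the brightest. At 2-fold, 0 were higher and NDUFC2 alone was lower, beside 5.06% and 3.56% of all counted genes and 1.16% and 0.781% of the brightest. NDUFC2 was counted only through the scramble-shRNA array, so its direction is tied to its being counted. The quartiles of the 37 genes were -0.25 and 0.16, against -0.27 and 0.38 over all counted genes and -0.23 and 0.25 over the brightest.

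**Figure D1:**
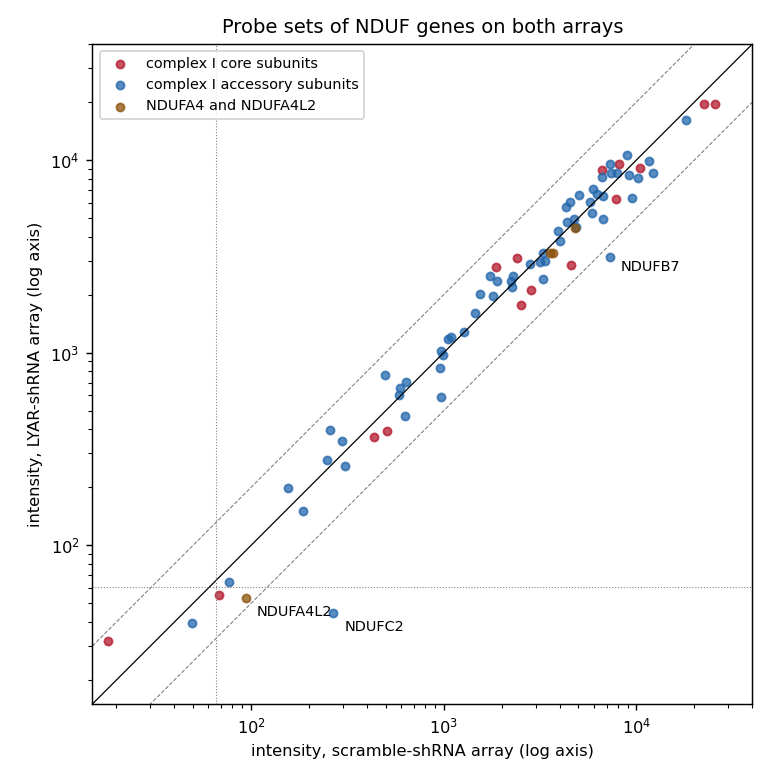
Intensity of each NDUF probe set on the scramble-shRNA array (x, log axis) and on the LYAR-shRNA array (y, log axis), in red for core, blue for accessory, brown for NDUFA4 and NDUFA4L2. The solid line marks equal intensity, the dashed lines a 2-fold difference and the dotted lines the near-random limits of 65.4 and 60.7; NDUFC2 and the lower NDUFB7 probe set lie beyond the lower dashed line.

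In the N module the core subunits did not share a direction. NDUFV1, which binds NADH and the flavin, gave 19608 with the LYAR shRNA and 22376 with the scramble shRNA at the first, and 19554 and 25463 at the second. Both probe sets were lower with the LYAR shRNA, by -0.19 and -0.38. NDUFV2, which carries an iron-sulfur cluster beside the flavin, gave 3097 and 2400 at the first probe set and 2795 and 1877 at the second. Both were higher, by 0.37 and 0.57, and the gene mean of 0.47 was the highest of the 37 subunits. NDUFS1, the largest subunit and the holder of several iron-sulfur clusters, gave 2108 and 2852 at its bright probe set, a difference of -0.44. Its other probe sets gave 55.2 and 68.3, and 31.9 and 18.2, so the last was near random on both arrays and the former on the LYAR-shRNA array. The gene mean of 0.02 thus averages a bright probe set that was lower with probe sets that carry little signal. NDUFV1 and NDUFV2, which form the NADH-oxidising tip together, therefore lay at opposite sides of 0.

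In the Q module 3 of the 4 core genes were lower on the LYAR-shRNA array, and the median of the 4 was -0.31. Of all counted genes 45.4% were lower, and of the brightest 48.2%. NDUFS3, which helps to frame the quinone site, gave 1776 and 2525 at its 1 probe set, a difference of -0.51 and the lowest among core genes. NDUFS7, which holds the last iron-sulfur cluster before quinone, had 4 probe sets. They gave 6272 against 7788, 2849 against 4566, 392 against 505, and 365 against 433, the LYAR-shRNA array first. All 4 were lower, by -0.31, -0.68, -0.36 and -0.25, over more than a 10-fold range of intensity, which made NDUFS7 the core gene with the most probe sets behind its direction. NDUFS8, a ferredoxin-like subunit next to it, gave 9061 and 10488 at 1 probe set, a difference of -0.21.

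Core and accessory medians were -0.21 and 0.07, and the core median minus the accessory median was -0.28. Of the core genes 4 of 7 were below 0, against 13 of 30 accessory genes, 45.4% of all counted genes and 48.2% of the brightest. The range of the core genes (-0.51 to 0.47) covered that of all accessory genes but NDUFB7 and NDUFC2. Under the other processing choices the core median minus the accessory median lay between -0.38 and -0.24. With centring, 32 added before the log2, the series value table, each gene's brightest probe set, or probe sets near random on both arrays left out, NDUFS1 was below 0 too, and 5 of 7 core genes then were.

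**Figure D2:**
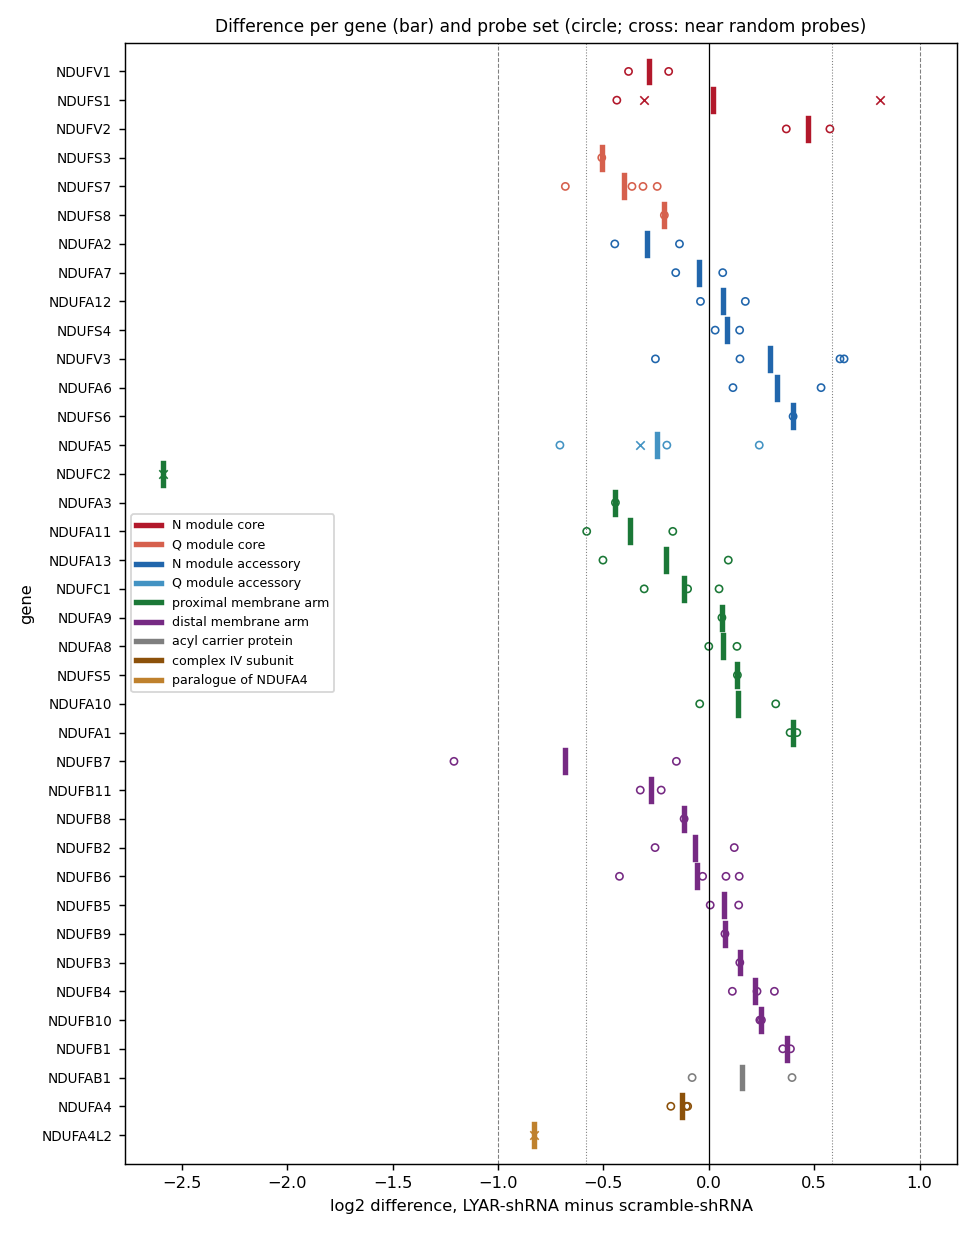
Log2 difference (LYAR shRNA minus scramble shRNA) of the NDUF genes, as a bar for the gene mean and a circle for each probe set, with a cross where a probe set was near random on an array. Dotted and dashed lines mark 1.5-fold and 2-fold; most bars lie between the dotted lines, NDUFC2 at -2.59 and NDUFB7 at -0.68 being the complex I genes outside them.

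Promoter sequences were set beside these differences, since nuclear respiratory genes are often described as targets of NRF1 and YY1. RefSeq promoters of GRCh38.p14, from 250 bases before to 50 after each start, were at hand for 32 of the 37 subunit genes. NDUFS7 and NDUFA6 are shown because they were the subunits that held both the NRF1 letters and the YY1 letters. NDUFS3 and NDUFV2 are shown as the lowest and the highest core gene. Capitals mark motif letters.
NDUFS7 (chr19:1383657-1383956, plus strand): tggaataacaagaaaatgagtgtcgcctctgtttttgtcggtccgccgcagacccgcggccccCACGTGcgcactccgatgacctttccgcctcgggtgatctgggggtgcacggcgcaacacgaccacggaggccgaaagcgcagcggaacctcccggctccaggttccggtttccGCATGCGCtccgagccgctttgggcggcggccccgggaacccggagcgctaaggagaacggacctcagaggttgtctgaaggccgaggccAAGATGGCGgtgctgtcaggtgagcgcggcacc
NDUFA6 (chr22:42090723-42091022, minus strand): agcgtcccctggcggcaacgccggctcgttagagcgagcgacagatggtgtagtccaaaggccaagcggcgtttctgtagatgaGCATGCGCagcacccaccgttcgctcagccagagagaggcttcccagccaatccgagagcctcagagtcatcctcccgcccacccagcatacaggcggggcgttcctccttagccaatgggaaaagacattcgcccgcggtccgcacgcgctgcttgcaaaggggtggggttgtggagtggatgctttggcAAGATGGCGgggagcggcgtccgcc
NDUFS3 (chr11:47578824-47579123, plus strand): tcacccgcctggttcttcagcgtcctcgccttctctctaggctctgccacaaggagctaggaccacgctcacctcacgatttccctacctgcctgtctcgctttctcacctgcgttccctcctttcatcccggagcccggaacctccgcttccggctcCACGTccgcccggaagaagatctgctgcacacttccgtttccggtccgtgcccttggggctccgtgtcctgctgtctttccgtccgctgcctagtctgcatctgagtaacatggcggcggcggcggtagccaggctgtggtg
NDUFV2 (chr18:9102449-9102748, plus strand): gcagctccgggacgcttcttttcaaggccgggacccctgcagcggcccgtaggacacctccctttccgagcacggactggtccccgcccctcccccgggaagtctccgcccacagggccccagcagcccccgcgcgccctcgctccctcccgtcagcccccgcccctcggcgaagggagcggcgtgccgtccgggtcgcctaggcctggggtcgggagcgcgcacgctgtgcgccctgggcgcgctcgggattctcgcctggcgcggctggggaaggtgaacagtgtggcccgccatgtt
In NDUFS7 the NRF1 letters lay 73 to 66 bases before the start, and in NDUFA6 166 to 159 before it, while the YY1 letters followed the start in both.

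Each motif was searched on both strands as exact letters. NRF1 (GCATGCGC) was found in 5 of 32 subunit promoters (15.6%), beside 3.27% of all 27305 promoters in the table and 5.60% of the 8879 whose gene was counted. These were NDUFA6, NDUFA8, NDUFB4, NDUFS6 and NDUFS7. YY1 (AAGATGGCG) was also found in 5 (15.6%), namely NDUFA6, NDUFA7, NDUFA9, NDUFS4 and NDUFS7, beside 1.85% and 4.20%. The ETS letters CCGGAAGT, read by GABP, were in NDUFA13 and NDUFS1 (6.25%, beside 4.44% and 9.13%), and the CRE letters TGACGTCA, read by CREB1, in NDUFA10 and NDUFB2 (6.25%, beside 1.98% and 3.44%). The short HIF letters ACGTG were in 9 promoters (28.1%), beside 21.6% and 27.2%, and in NDUFS7 the matches on the 2 strands overlap. Subunits with the same letters did not lie on 1 side of 0: NDUFS7 was at -0.40 and NDUFA6, with the same NRF1 and YY1 letters, at 0.32, and the other NRF1 matches ranged from 0.07 (NDUFA8) to 0.40 (NDUFS6). The median difference was 0.22 with the NRF1 letters and -0.06 without them, and 0.06 and -0.06 for YY1. For the HIF letters it was -0.05 and 0.02. These medians rest on few genes, and a link of letters and direction was not tested. A match is a description and not a bound site, and 20 of the 32 promoters held none of the 4 longer motifs.

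Of the accessory subunits of the N module 5 of 7 were higher, with a median of 0.09, beside 54.6% and 0.05 for all counted genes; after centring the median was 0.03. NDUFS6, a zinc-binding subunit, was the highest, with 9575 and 7257 at 1 probe set and a difference of 0.40. NDUFA6, an LYR protein that docks an acyl carrier protein, gave 4266 against 3940 and 2500 against 1729, both higher, for a mean of 0.32. NDUFV3, a small subunit near NDUFV1, averaged 0.29 over 4 probe sets that ran from -0.25 to 0.64. NDUFS4, needed for a stable N module, gave 706 against 638 and 601 against 589, and its mean was 0.09. NDUFA12 at 0.07 and NDUFA7 at -0.05 each had a probe set on either side of 0. NDUFA2, a thioredoxin-fold subunit, was lower at both probe sets (8339 against 9183 and 2417 against 3293), with a mean of -0.29. The Q module accessory subunit NDUFA5 averaged -0.25, with 3 of its 4 probe sets below 0 and 1, at 0.24, above.

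In the proximal membrane arm NDUFC2 stood apart from every other subunit. NDUFC2, a small subunit bound to the mitochondrially encoded ND2, gave 44.4 with the LYAR shRNA and 267 with the scramble shRNA at its 1 probe set. The former is near random, so the gene was at least 4.41-fold lower there; the measured log2 difference was -2.59. The probe set was absent from the authors' series value table, and its hg18 position in the array file is chr11:77457043. Its partner NDUFC1 did not share this: 3 probe sets ran from -0.31 to 0.05, with a mean of -0.12. Without NDUFC2 the median of the 37 genes stayed at 0.06.

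The other proximal subunits were spread on both sides of 0, with 5 above and 4 below, or 4 and 5 with the brightest probe set of each gene. NDUFA1, an X-linked subunit at the base of the arm, was highest, with 6596 against 5049 and 6038 against 4521, or 0.39 and 0.42. NDUFA10, related to nucleoside kinases, averaged 0.14, with probe sets of -0.04 and 0.32, and the intermembrane-space subunits NDUFS5 and NDUFA8 were at 0.14 and 0.07. NDUFA9, which binds NADPH, was at 0.06. On the lower side NDUFA3 gave 4943 and 6719 at 1 probe set, a difference of -0.44. NDUFA11, a membrane subunit at the contact with complex III, gave 16160 against 18192 and 6367 against 9513, both lower, for a mean of -0.38. NDUFA13, also known as GRIM-19, averaged -0.20, but its probe sets gave -0.50 and 0.09.

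NDUFB7 was the lowest gene of the distal membrane arm. It is a subunit of the intermembrane-space face, and its gene mean was 1.60-fold lower with the LYAR shRNA (-0.68). The mean rested on 1 of its 2 probe sets, which gave 3137 and 7252 (-1.21), while the other gave 5292 and 5887 (-0.15). Both were lower, but with the brighter probe set alone the gene would not have been 1.5-fold lower. Of the other 10 distal genes 6 were higher, beside 54.6% of all counted genes. NDUFB1, a small membrane subunit, was highest at 0.37, with both probe sets close to that value. NDUFB10, which has a disulfide-linked fold in the intermembrane space, gave 10595 against 8913 and 7070 against 5978, or 0.25 and 0.24. NDUFB4 was higher at all 3 probe sets, from 0.11 to 0.31, with a mean of 0.22. NDUFB3, NDUFB9 and NDUFB5 were at 0.15, 0.08 and 0.07. NDUFB11, the X-linked subunit whose mutations affect heart and skin, was lower at both probe sets (9892 against 11569 and 8091 against 10137), with a mean of -0.28. NDUFB8, NDUFB2 and NDUFB6 were at -0.12, -0.07 and -0.06, the last from 4 probe sets between -0.42 and 0.14. NDUFAB1, the mitochondrial acyl carrier protein that sits in both arms, averaged 0.16 from probe sets of 0.39 and -0.08.

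Probe sets of the same gene often disagreed in direction. Among the 27 complex I genes with 2 or more probe sets, 9 had all of them above 0, 6 had all below, and 12 had both signs. All probe sets had the same sign in 15 of 27 (55.6%), against 60.9% of all counted genes with several probe sets and 69.0% of the brightest. The higher genes with full agreement included NDUFV2, NDUFA1, NDUFB1, NDUFB10, NDUFA6 and NDUFB4. The lower ones were NDUFV1, NDUFS7, NDUFB7, NDUFA11, NDUFA2 and NDUFB11. The pooled SD between probe sets was 0.31 for complex I genes, 0.46 for all counted genes and 0.23 for the brightest.

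The chromosome of a subunit gene went with its direction. All 6 complex I genes on chromosome 19 were below 0: NDUFB7, NDUFA3, NDUFS7, NDUFA11, NDUFA13 and NDUFA7, from -0.68 to -0.05. NDUFA7 turned to 0.07 with the brightest probe set of each gene. All 4 on chromosome 11, NDUFC2, NDUFS3, NDUFV1 and NDUFS8, were below 0 under every setting that measured them. On the remaining chromosomes 20 of 27 were above 0 and 7 below, with a median of 0.09. All counted genes of those chromosomes had a close median of 0.07, with 43.98% of 11094 below 0. Their 3565 brightest had a median of 0.04, with 45.78% below 0. Counted genes of chromosome 19 as a whole were, like its subunit genes, more often lower, 59.3% of 867 with a median of -0.10. Of its 374 brightest, 66.3% were lower, with a median of -0.17. Chromosome 11 was even over its counted genes, with 49.9% of 721 below 0 and a median of 0.00. Its 289 brightest genes leaned lower, with 55.0% below 0 and a median of -0.05. Of the 7 core genes, 4 lie on these chromosomes, and by their gene means they are the 4 core genes below 0. NDUFS1, on chromosome 2, joined them under the settings named above. These chromosomes were singled out after the values were seen, and no test was made.

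**Figure D3:**
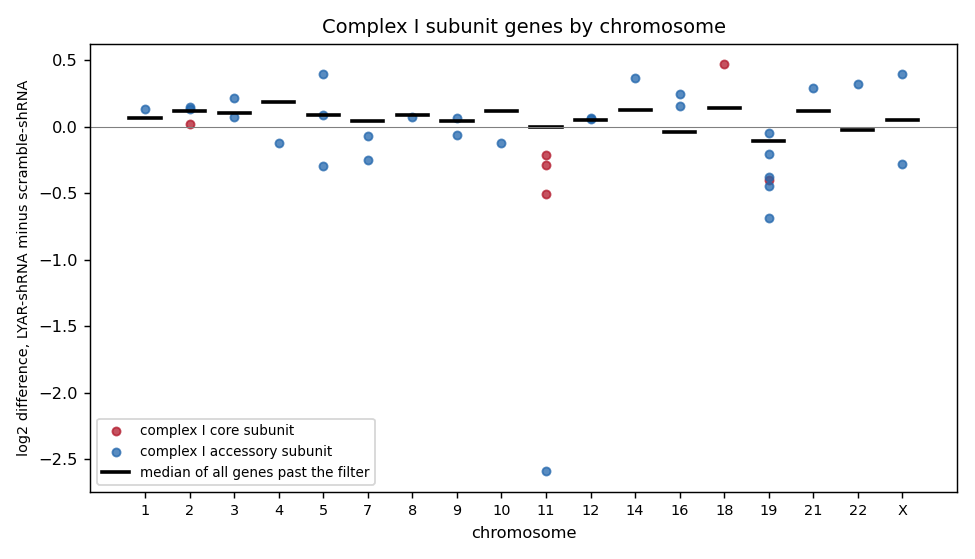
Log2 difference (LYAR shRNA minus scramble shRNA) of complex I genes by chromosome, red for core and blue for accessory, with a black bar at the median of all counted genes of that chromosome. The 6 genes on chromosome 19 and the 4 on chromosome 11 lie below 0 (1 of the former, NDUFA7, turns above 0 with the brightest probe set of each gene), while most on other chromosomes lie above.

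Subunit genes were also set against their size. The 19 subunit genes with an hg18 span at or below the median of 11247 bases had a median difference of -0.12, with 12 below 0. The 18 longer genes had a median of 0.07, with 5 below 0, beside 45.4% of all counted genes, which were not themselves split by span. The shorter genes below 0 include NDUFB7, NDUFA3, NDUFA11, NDUFA7, NDUFS3, NDUFV1 and NDUFS8, which lie on chromosome 19 or 11. Size and chromosome were thus not separated. Across the 37 genes the Spearman correlation of span and difference was 0.27, against 0.14 over all counted genes, and that with mean intensity was -0.02 against -0.08. These are correlations across genes of the same 2 arrays, and genes are not independent replicates.

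NDUFA4 and NDUFA4L2 carry complex I names but belong with cytochrome c oxidase. NDUFA4 is a subunit of complex IV, now named COXFA4, and all 3 of its probe sets were slightly lower, at 4459 against 4780, 3295 against 3548 and 3274 against 3709, or -0.10, -0.11 and -0.18. NDUFA4L2, now COXFA4L2, is a HIF-induced paralogue that can take its place under hypoxia. Its 1 probe set gave 53.1 and 94.4, near random on the LYAR-shRNA array and at least 1.55-fold lower there, and it was too dim on both arrays to be counted. Other HIF targets were mostly higher: 11 of 12 measured genes, beside 54.6% of all counted genes, with a median of 1.27. Of the 12, 7 were 2-fold or more higher, beside 5.06% of all counted genes. Among them were ANKRD37 (2094 against 186, or 3.49), EGLN3 (1.88), NDRG1 (1.71) and CA9 (1.61). With the brightest probe set of each gene 10 of these 12 were higher. This list was chosen with the earlier result for hypoxia genes known, so its direction is not independent of it. COX4I2, the hypoxia-induced isoform of another complex IV subunit, was the exception at -0.14.

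Complex IV, where NDUFA4 belongs, is the oxidase at the end of the chain. All 15 counted genes with COX4 to COX8 names were lower, as NDUFA4 was, with a median of -0.18, beside 45.4% of all counted genes and 17 of the 37 complex I genes. The same 15 were lower under each rescaling of the arrays, but with the brightest probe set of each gene 14 of 15 were. COX8A (9696 against 13885, -0.52), COX5B (9787 against 12998, -0.41) and COX5A (4044 against 5073, -0.33) were among the lowest of the bright ones. The tissue-restricted isoforms COX6A2 (57.6 against 107) and COX6B2 (66.9 against 109) were close to the random probes. Both were counted only through the scramble-shRNA array, so their direction is tied to their being counted. EMC8, listed as COX4NB, is among the 15 by its old name and is not a subunit. All of these differences but those of COX6A2 and COX6B2 were under 1.5-fold.

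In the remaining complexes genes lay on both sides of 0, as in complex I. Of all counted genes 54.6% were higher and 45.4% lower, with a median of 0.05. In complex III, 5 of 7 genes were lower, with a median of -0.11 (-0.02 in the series value table and -0.03 with 32 added before the log2), from UQCRQ at -0.38 and UQCRC1, a core protein, at -0.36 to UQCR11 at 0.42. Of the 16 genes with old ATP5 names, taken as ATP synthase, 9 were higher, with a median of 0.06. The median was 0.00 when each array was centred on its median and 0.13, with 13 higher, at the brightest probe sets. The 16 include ATP5S, now named DMAC2L (114 against 82.3, or 0.48), which was counted only through the LYAR-shRNA array. ATP5PO, a stalk subunit, was at 0.58, and ATP5MC3, a c-ring gene, averaged 0.90 but was at 0.19 at its brighter probe set, the other being near random on an array. Mitochondrial ribosomal protein genes, 76 by name with MRPS36 (now KGD4) among them, were split 41 to 35, with a median of 0.02. After centring they were split 33 to 43. Their extremes were MRPL55 at -0.92 and MRPL33 at 1.01, the latter 0.53 at its brighter probe set. Among the 4 subunits of complex II, SDHA, the flavoprotein, gave 3482 and 6300 at 1 probe set, a difference of -0.86, while SDHB and SDHD were at 0.04 and -0.04. SDHC averaged 0.70, but its 3 probe sets ran from -0.03 to 1.72.

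**Figure D4:**
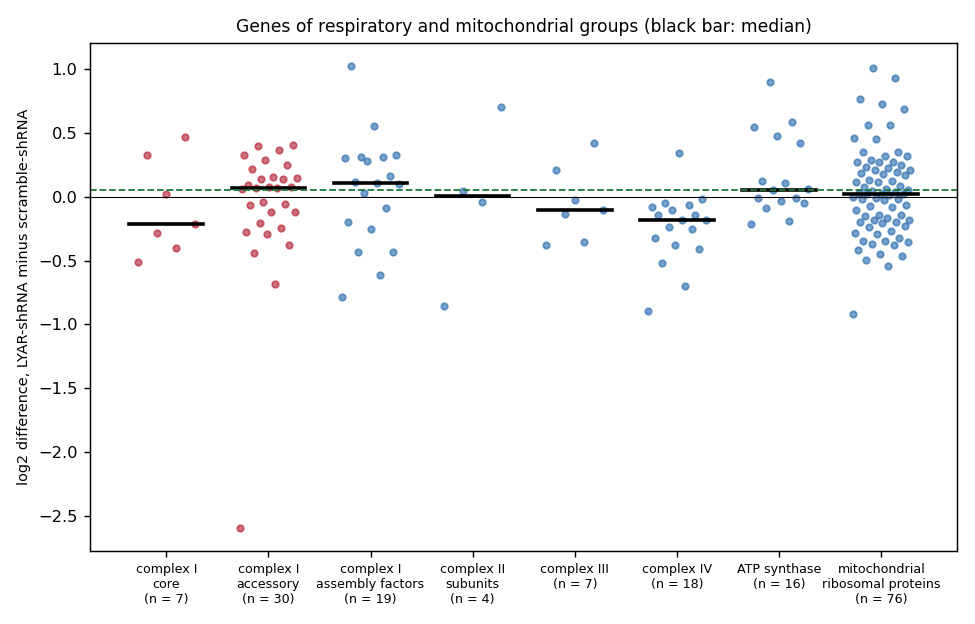
Log2 difference (LYAR shRNA minus scramble shRNA) of each measured gene of complex I, its assembly factors, the other respiratory complexes and the mitochondrial ribosome, with a black bar at the group median and a dashed line at 0.05, the median of all counted genes. The 18 complex IV names centre at -0.18, with 1 point above 0, while complex I accessory genes centre at 0.07 and core genes at -0.21.

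Assembly factors of complex I, which build the enzyme but are absent from it, were measured for 19 genes and all were bright enough to count. Of these 12 were higher and 7 lower, with a median of 0.10, beside 54.6% higher and a median of 0.05 for all counted genes. NDUFAF6, an early assembly factor, was the highest at 1.02, from 163 against 79.9, with 1 of its 2 probe sets near random on an array. TIMMDC1, which acts in the proximal arm, was at 0.55, DMAC1 at 0.33 and NDUFAF7, a methyltransferase, at 0.31. On the lower side NUBPL, which delivers iron-sulfur clusters, was at -0.79 (69.6 against 120), ECSIT at -0.61 (2248 against 3434), and FOXRED1 and NDUFAF2, the paralogue of NDUFA12, at -0.43 each. At 1.5-fold, 1 was higher (NDUFAF6) and 2 were lower (NUBPL and ECSIT), beside 15.0% and 11.0% of all counted genes. NDUFAF6 was counted only through the LYAR-shRNA array and NUBPL only through the scramble-shRNA array. The direction of both is thus tied to their being counted.

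Regulators of respiratory genes were measured for 16 genes, of which 12 were counted, and their median was 0.05. The sign turned with the scaling, at -0.01 after centring, -0.02 and -0.03 after quantile and lowess scaling, and -0.18 with the brightest probe sets. MYC (7355 against 4385, 0.75) and YY1 (3158 against 2169, 0.54) were higher. CREB1 averaged 0.55, but its 4 probe sets ran from -0.38 to 1.21 and the brightest of them was the lowest. PPRC1, a coactivator, was at -0.36, TFB2M, a mitochondrial transcription factor, at -0.31, NRF1 at -0.28 and ESRRA at -0.18. YY1 and NRF1, whose letters stand in the NDUFS7 and NDUFA6 promoters above, thus lay on opposite sides of 0. GABPA, the DNA-binding subunit of GABP, was too dim to be counted, at 24.3 with the LYAR shRNA and 84.3 with the scramble shRNA.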

How the data were processed

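RNA of 1 LYAR-shRNA and 1 scramble-shRNA sample was measured on single-colour arrays. The deposited intensity values are linear and summarised by RMA, per the submitters' processing notes; no source used here gives its settings, and where both arrays are brought to 1 distribution a shift of most genes would not show. Per the file headers each probe set also has a count of its probes, a score named as a standard error, which was not used, and hg18 positions. A series value table holds 22639 probe sets, at most 0.0403 from the array values, and was an alternative only.

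From these, log2 intensities were averaged over the probe sets of a gene ID (Python 3.11.15, pandas 2.3.3), with no pseudocount. Symbols came from RefSeq, which matched 90.6% of probe sets with an ID and 39 of 39 members. Counts cover genes with 105.9 or more on the brighter array, the median of all genes' means. With 1 array per group there was no test: genes were counted at 1.5-fold, at 2-fold and by sign, and lists described by medians. A near-random value (under 2 times the 5000 random probes) was a bound, and a fold against it is written "at least". Steps were tested on simulated data. All members could be named, and up to 4 counted genes in each direction of other lists. Members and lists were chosen with earlier results of these data known. Modules follow common assembly schemes, and border subunits such as NDUFA9 can be placed otherwise. Counts and medians include 1 subunit gene that is not reported here by name, nor drawn in the plots by gene and by chromosome.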

Additional observations from a re-analysis of the deposited data

How the results depend on the processing

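No paired analysis was possible because each group had 1 array, and no replicate could be left out. The choices tried were a gene's brightest probe set, the series value table, centring, quantile and lowess scaling, 32 added before the log2, other filters, and counting probe sets; leaving out probe sets near random on both arrays was added after seeing the data. The complex I median lay between 0.01 and 0.07 and the core median minus the accessory median between -0.38 and -0.24. With the brightest probe set the core median was -0.31, the difference -0.38, and 1 gene was 1.5-fold lower. With the series value table, and with genes above the near-random limit on both arrays, 1 was 1.5-fold and 0 were 2-fold lower, since NDUFC2 then drops out. Counted as probe sets, 38 were above and 33 below 0, 9 core ones below, 2 were 1.5-fold higher, 4 1.5-fold lower and 2 2-fold lower. Of 349 gene values, 348 moved by less than 0.59, the pooled SD between probe sets over all genes. NDUFC2 moved from -2.59 to -1.97 with the added 32. This tally is a weak check, since the other filters cannot change a gene value and the same SD over complex I genes was 0.31. With the brightest probe set NDUFB7 went from -0.68 to -0.15 and NDUFS1 from 0.02 to -0.44, moves that both stayed under 0.59. Low signal limits NDUFC2, NDUFA4L2 and NDUFS1.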

Other observations

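A pair of NDUF pseudogenes had probe sets of their own outside the name rule. NDUFB4P12 gave 5511 with the LYAR shRNA and 4938 with the scramble shRNA, or 0.16, beside 0.22 for NDUFB4. NDUFA3P3 gave 1099 and 1391, or -0.34, beside -0.44 for NDUFA3. The pseudogenes lie on other chromosomes than their parent genes. The probes' sequences were not used here, so how far a probe set also measures the other copy is uncertain for both parent genes.

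Several subunit genes start within 1000 bases of a gene on the opposite strand. Of 11 such neighbours on the array 8 were bright enough to count, and 3 of these had the sign of the subunit gene and 5 the opposite. This split rests in part on values close to 0. With its brightest probe set NDUFA7 turned to 0.07, and NDUFS1, whose neighbour EEF1B2 was at -0.08, went from 0.02 to -0.44. The share of other such gene pairs with the same sign was not counted. NDUFB1 at 0.37 and CPSF2, a pre-mRNA cleavage factor, at 0.63 were both higher, and NDUFB11 at -0.28 and RBM10, a splicing factor, at -0.12 both lower. NDUFS3 at -0.51 and KBTBD4 at 0.02 differed, as did NDUFA2 at -0.29 and the splicing factor IK at 0.21, and NDUFA7 at -0.05 and RPS28, a ribosomal protein, at 0.23.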
